A study of Mus musculus with 10 samples.

Results

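Gene expression was compared between Ezh2-null and WT MLL-AF9 leukaemia of the mouse, on 7 of the 10 arrays of the study: 4 Ezh2-null and 3 WT. The arrays were chosen by their genotype labels alone, and no measured value entered that choice. MLL-AF9 is a fusion oncogene of acute myeloid leukaemia, here carried by a retrovirus that also encodes GFP. In both groups the mice were of the C57B/6 background, were sublethally irradiated, received cells of replated leukaemic colonies and were later given pIpC, a synthetic double-stranded RNA, to switch on Cre recombinase. Live bone marrow cells positive for GFP and for YFP, the mark of Cre activity, were sorted from the leukaemic mice. The WT cells had therefore also been through pIpC and Cre. The other 3 arrays, Eed-null leukaemia made in the same way, entered only through the estimate of the spread and as reference levels. The labels call the arrays of a group biological replicates, but not which donor or colony each array came from. The p-values therefore measure only the spread between these samples, and differences between donors cannot be told apart from genotype.

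Ezh2 is the main catalytic subunit of Polycomb repressive complex 2 (PRC2), which methylates histone H3 at lysine 27 and needs the core subunits Eed and Suz12. The mark helps to keep developmental genes silent, and the partner complex PRC1, with subunits such as Bmi1, binds it. In mammals PRC2 is found mainly at promoters rich in CG dinucleotides, and Ezh1 is its alternative, less active catalytic subunit.

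Intensities are on the log2 scale throughout, and a difference is the mean of the Ezh2-null arrays minus the mean of the WT arrays, so 1 unit is a 2-fold difference. Array medians over the 20564 measured genes lay between 7.42 and 7.46. Across genes, arrays of a group correlated with each other at 0.959 to 0.978 in WT and 0.975 to 0.989 in Ezh2-null. The median SD of a gene was 0.214 in WT and 0.181 in Ezh2-null. WT replicate 3 stood apart on the first principal component of the 7 arrays, at 51.61, and WT replicate 2 on the second, at -47.24. Of the marker genes, 5 of 5 general myeloid ones lay above the array median on all 7 arrays, as did 2 of 4 monocyte and macrophage ones, Csf1r and Ccr2, while Adgre1 did so on 6 arrays and C1qa on 0. Of 20 markers of B, T and NK, erythroid, megakaryocytic, mast, eosinophil, basophil and stromal or endothelial cells, 3 did so, and 14 were above the median on no array. Precision is limited by the small number of arrays.

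Few genes passed the test across all genes. Bmi1, Hebp1, Bmpr1a and Tcf24 were higher and the Rosa26 transcript Gt(ROSA)26Sor was lower in Ezh2-null leukaemia (limma, adjusted p under 0.05). These 5 genes are 0.0243% of the 20564 tested, with 0.0195% higher and 0.00486% lower. In each of them all values of one group lay above all values of the other, which held for 1029 genes (5.0%), 455 higher (2.21%) and 574 lower (2.79%). A larger set was 2-fold apart without overlap, 60 genes higher (0.292%) and 25 lower (0.122%). At an unadjusted p under 0.05 there were 769 genes (3.74%), 393 higher (1.91%) and 376 lower (1.83%), a share below the threshold itself. With 3 and 4 arrays, groups can also lie apart without overlap by chance, and the 5.0% seen is no more than chance alone would give. The calls depended on single arrays: with WT replicate 2 left out limma called 0 genes (706 at an unadjusted p under 0.05), and so it did with Ezh2-null replicate 1, 3 or 4 left out (672, 605 and 586). It called 1 gene, Bmi1, without Ezh2-null replicate 2 2 genes without WT replicate 1 or WT replicate 3, and 3 without Eed-null replicate 2 or 3, which bear only on the spread. The number of genes 2-fold apart without overlap was 248 without WT replicate 1, 145 without WT replicate 3 and 137 without Ezh2-null replicate 2. Smaller groups lie apart more easily by chance, so higher counts do not by themselves show that an array matters. Over all genes 9191 differences were positive (44.7%), and the median was -0.02, with the 1st and 99th percentiles at -0.67 and 0.85.

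**Figure D1:**
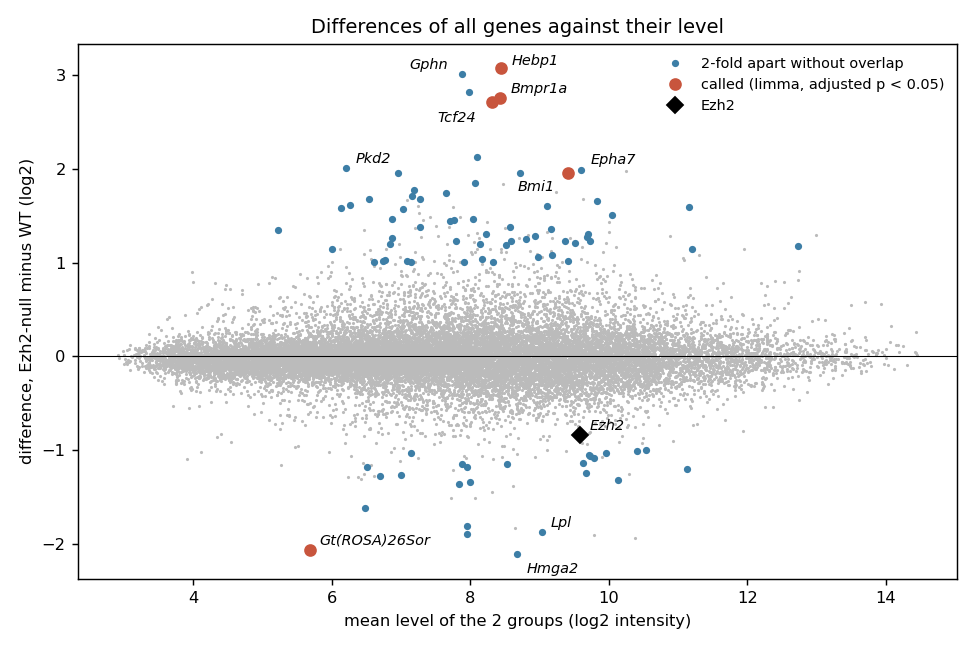
Difference between Ezh2-null and WT (log2) against the mean level of both groups (log2 intensity), with 1 point per gene for 20564 genes. Called genes are large red points, genes 2-fold apart without overlap are blue and Ezh2 is a diamond; the called genes run from -2.07 to 3.07, and many genes not called lie as far from 0.

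Bmi1, a PRC1 subunit known for its role in stem cell self-renewal, read 8.62, 8.15 and 8.54 in WT replicates 1 to 3. It read 10.28, 10.18, 10.57 and 10.53 in Ezh2-null replicates 1 to 4. The Ezh2-null arrays lay close to each other and all above the WT arrays. The gene rose 3.88-fold, or by 1.96 units, from 8.44 ± 0.25 (SD, n = 3) to 10.39 ± 0.19 (SD, n = 4; SE of the difference 0.19, 95% interval 1.54 to 2.37; limma, adjusted p = 0.0101). A second Bmi1 probe set read 7.36, 6.76 and 7.01 in WT and 9.19, 8.54, 9.30 and 9.11 in Ezh2-null, and differed by 1.99. Both probe sets of the gene therefore separated the groups by nearly the same amount.

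Hebp1 encodes a haem-binding protein, of which a cleaved peptide attracts leukocytes in humans. Its levels were 6.66, 6.41 and 7.66 in WT, and 9.78, 10.02, 10.14 and 9.99 in Ezh2-null. WT replicate 3 was the highest of the WT arrays and still lay below every Ezh2-null array. From 6.91 ± 0.66 (SD, n = 3) to 9.98 ± 0.15 (SD, n = 4) the gene rose 8.42-fold, by 3.07 (SE 0.30, 95% interval 2.40 to 3.75; limma, adjusted p = 0.0101). The gene is read by 1 probe set.

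Bmpr1a encodes a type I receptor of the BMP pathway, whose ligands (bone morphogenetic proteins) are secreted signals of the TGF-beta family. The WT arrays read 7.12, 7.37 and 6.64 and the Ezh2-null arrays 9.36, 9.88, 9.73 and 10.24. The groups were separate, with Ezh2-null replicate 4 highest. The group means were 7.04 ± 0.37 (SD, n = 3) and 9.80 ± 0.37 (SD, n = 4), so the gene rose 6.76-fold, by 2.76 (SE 0.32, 95% interval 2.04 to 3.47; limma, adjusted p = 0.0327). Its 6 probe sets differed by 0.29 to 3.26, and 4 of them separated the groups.

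The stretch of 250 bases before the start of Bmi1, Hebp1 and Bmpr1a is shown because these genes rose in cells labelled as lacking a catalytic subunit of PRC2, a complex known at CG-rich promoters. Sequences and starts are from RefSeq (GRCm38.p6), 5′ to 3′ on the strand of the gene, with each CG dinucleotide in capitals. Bmi1 lies on the plus strand at chr2:18676768-18677017, Hebp1 on the minus strand at chr6:135168216-135168465 and Bmpr1a on the minus strand at chr14:34502547-34502796.
Bmi1: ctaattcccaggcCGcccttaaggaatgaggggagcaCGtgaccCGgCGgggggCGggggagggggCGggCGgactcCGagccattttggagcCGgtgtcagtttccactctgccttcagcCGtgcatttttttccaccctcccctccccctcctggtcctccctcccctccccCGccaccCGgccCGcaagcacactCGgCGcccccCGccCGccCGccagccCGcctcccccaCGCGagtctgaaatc
Hebp1: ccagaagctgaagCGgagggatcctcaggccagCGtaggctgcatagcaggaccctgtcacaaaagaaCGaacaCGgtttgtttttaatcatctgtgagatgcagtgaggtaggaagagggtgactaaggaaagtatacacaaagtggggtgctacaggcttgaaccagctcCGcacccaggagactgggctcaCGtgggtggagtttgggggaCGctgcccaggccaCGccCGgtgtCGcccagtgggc
Bmpr1a: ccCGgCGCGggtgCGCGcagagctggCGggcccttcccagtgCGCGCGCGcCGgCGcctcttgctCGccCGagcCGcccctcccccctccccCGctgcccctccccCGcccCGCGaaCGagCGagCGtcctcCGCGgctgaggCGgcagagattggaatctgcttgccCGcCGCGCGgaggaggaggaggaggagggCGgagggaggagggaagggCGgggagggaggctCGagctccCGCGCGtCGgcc
The 3 promoters differed in CG content, since Bmi1 held 21 CG, Hebp1 10 and Bmpr1a 36. The motif searched was CG, which reads the same on both strands. At least as many CG were present in 25.3% of the 14275 promoters of measured genes for Bmi1, in 60.0% for Hebp1 and in 3.8% for Bmpr1a. The median was 13 over all these promoters, 10 over the 39 matched of the 60 genes 2-fold higher without overlap, and 8 over the 17 matched of the 25 lower ones. A count of CG describes these windows and says nothing of the binding of PRC2 in these cells.

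Tcf24 encodes a basic helix-loop-helix transcription factor. It read 7.23, 7.19 and 6.45 in WT and 9.18, 10.21, 9.11 and 10.17 in Ezh2-null. The groups did not overlap, and within Ezh2-null replicates 2 and 4 lay about 1 unit above replicates 1 and 3. With group means of 6.96 ± 0.44 (SD, n = 3) and 9.67 ± 0.61 (SD, n = 4) the gene rose 6.55-fold, by 2.71 (SE 0.34, 95% interval 1.97 to 3.45; limma, adjusted p = 0.0331). In the second version of the same arrays, which the authors had adjusted for batch with ComBat, the difference was 1.70 and did not pass (limma, adjusted p = 0.186). There the WT arrays read 8.36, 8.32 and 8.13, more than 1 unit above their levels in the first version. Tcf24 was also not called in the first version when the 7 arrays were fitted without Eed-null.

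The Rosa26 transcript Gt(ROSA)26Sor is a non-coding RNA from the locus that is widely used in mice to house reporter genes. It read 7.09, 6.42 and 6.66 in WT and 4.74, 4.51, 4.84 and 4.54 in Ezh2-null, with no overlap and little spread among the Ezh2-null arrays, and below the array median on all 7 arrays. It fell by 2.07 (SE 0.25, 95% interval -2.62 to -1.51; limma, adjusted p = 0.0331), from 6.72 ± 0.34 (SD, n = 3) to 4.66 ± 0.16 (SD, n = 4). The Eed-null mean was 6.87, and the ComBat version gave -2.43 for Ezh2-null against WT (limma, adjusted p = 0.000258). The labels do not say at which locus the YFP reporter lies.

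The Eed-null leukaemias, which lack another PRC2 subunit by their label, had levels of 9.98 for Bmi1, 9.24 for Hebp1, 10.18 for Bmpr1a and 8.46 for Tcf24. These are levels only: both null groups are set against the same WT arrays.

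**Figure D2:**
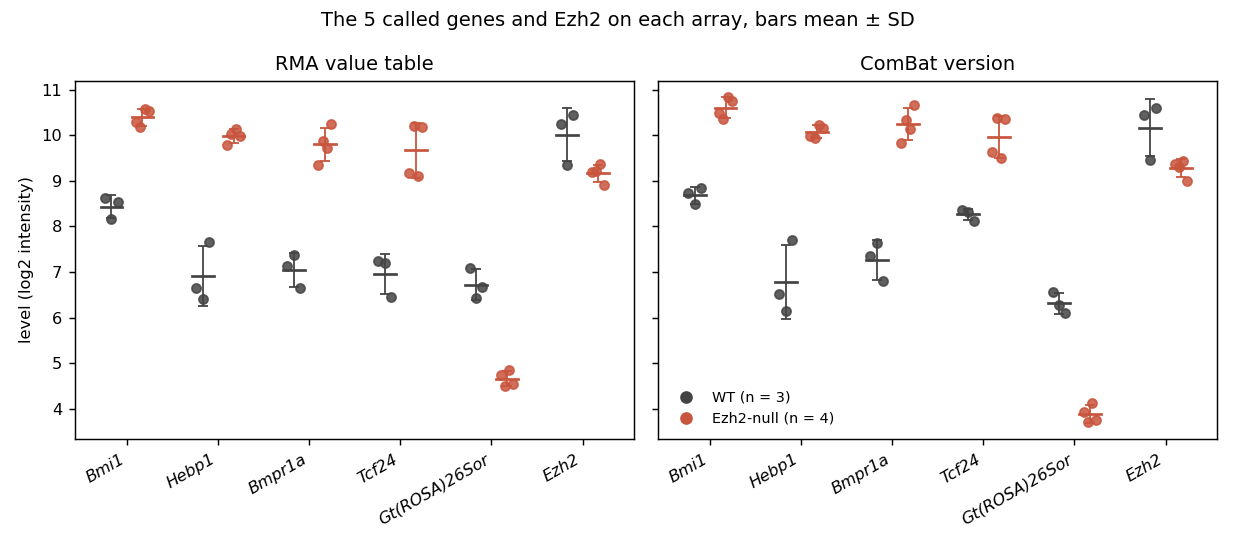
Level (log2 intensity) of the 5 called genes and of Ezh2 on each array, in the RMA value table (left) and in the ComBat version of the same arrays (right). Points are arrays, 3 WT and 4 Ezh2-null, and bars give the mean ± SD; the called genes separate the groups in both panels, and for Tcf24 the WT points lie at 8.13 to 8.36 on the right, nearer to Ezh2-null.

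Further genes were called when all 37762 probe sets were tested separately rather than the brightest of each gene. In that test 10 probe sets passed (0.0265%), and they added Lrmda, Epha7, Plag1 and Yes1 to the list of genes. Lrmda, a gene of melanocyte differentiation in humans, read 4.02, 3.63 and 3.42 in WT and 6.76, 6.80, 5.99 and 6.36 in Ezh2-null. The difference was 2.79 (SE 0.21; limma, adjusted p = 0.00261 over probe sets). Its 3 probe sets differed by 0.88 to 2.79, and in each the groups were separate. On the probe set that passed, the Eed-null arrays read 3.53, 3.39 and 3.74, near the WT levels. On those that passed for Epha7, Plag1 and Yes1, every Eed-null array lay above WT.

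Epha7 encodes a receptor tyrosine kinase for ephrins, cell-bound guidance signals. The probe set that passed read 6.49, 6.38 and 5.44 in WT and 9.06, 9.13, 8.97 and 9.20 in Ezh2-null. It differed by 2.99 (SE 0.25; limma, adjusted p = 0.00345 over probe sets). The brightest probe set of Epha7, which stands for the gene in the test over genes, differed by 1.99 (SE 0.57) and did not pass there (limma, adjusted p = 1.00). Its WT arrays read 8.51, 10.22 and 7.10 and so were more than 3 units apart, while the Ezh2-null arrays lay between 10.22 and 10.97, so WT replicate 2 reached the lowest Ezh2-null array to within rounding. Over the 4 probe sets of the gene the difference ranged from 0.97 to 3.22, and the groups were separate in all 4.

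Plag1, a zinc finger transcription factor gene known as an oncogene in salivary gland tumours, had a probe set at 5.54, 5.01 and 5.20 in WT and at 6.85, 6.70, 6.82 and 6.69 in Ezh2-null. The difference was 1.52 (SE 0.17; limma, adjusted p = 0.0209 over probe sets), and its other probe set differed by 0.76. Yes1, a Src-family kinase gene, read 5.68, 5.94 and 5.90 in WT against 7.31, 7.37, 6.92 and 7.02 in Ezh2-null on the probe set that passed. It differed by 1.31 (SE 0.17; limma, adjusted p = 0.0362 over probe sets), and its 4 probe sets by 0.38 to 2.19, each without overlap. Both genes thus had positive differences on all their probe sets, of sizes that varied between them. In WT the probe sets that passed for Lrmda, Epha7, Plag1 and Yes1 lay below the array medians over genes, as did those of Bmpr1a and Tcf24, so these fold differences rest on a dim baseline.

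**Figure D3:**
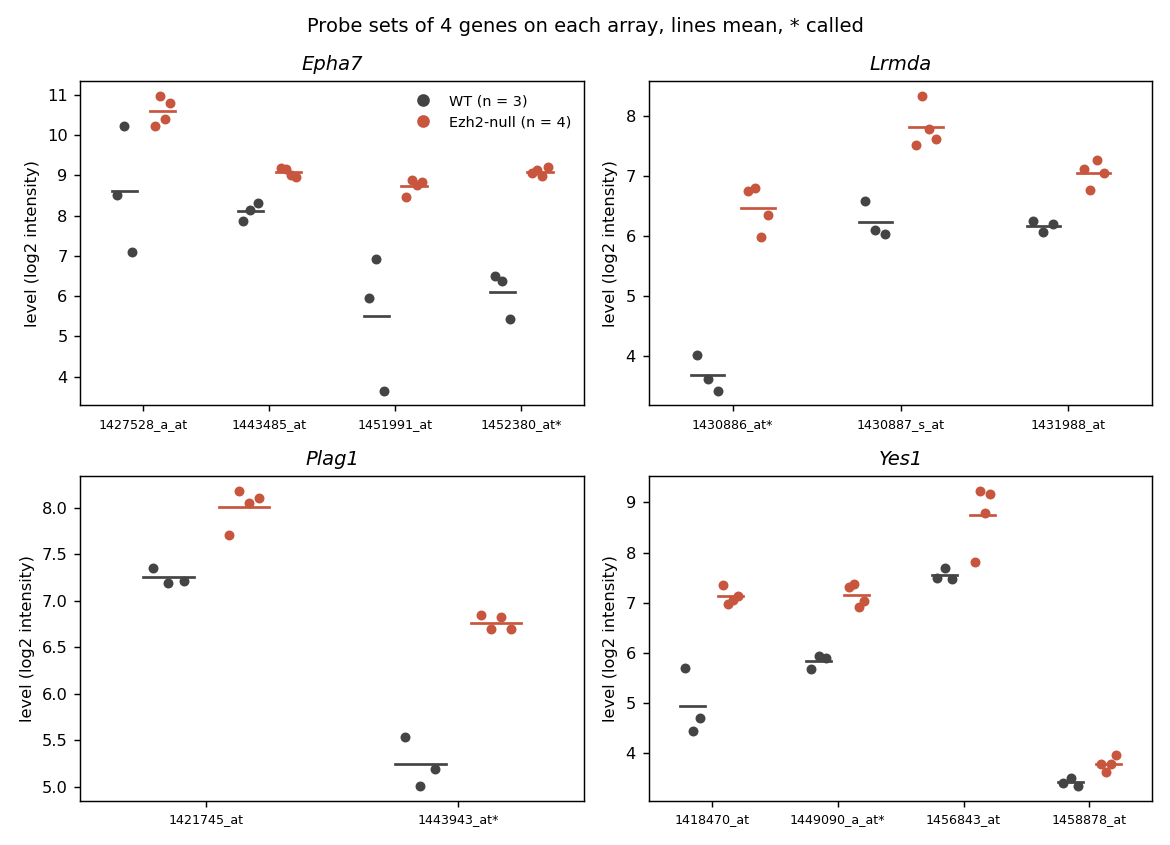
Level (log2 intensity) of each probe set of Epha7, Lrmda, Plag1 and Yes1 on each array, with 1 point per array, lines at the group means of 3 WT and 4 Ezh2-null arrays, and an asterisk at probe sets called in limma over all probe sets. Every probe set separates the groups, and in WT the brightest probe set of Epha7 runs from 7.10 to 10.22.

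The ComBat version gave 5 called genes (0.0243%) and 939 genes at an unadjusted p under 0.05 (4.57%). Bmi1 differed there by 1.92 (limma, adjusted p = 0.014), Hebp1 by 3.29 (limma, adjusted p = 0.0106) and Bmpr1a by 2.98 (limma, adjusted p = 0.00647). Lpl, which encodes lipoprotein lipase, was called in that version at -2.01 (limma, adjusted p = 0.034). In the first version it read 9.77 to 10.14 in WT and 8.54, 8.16, 7.73 and 7.93 in Ezh2-null. Its difference of -1.88 (SE 0.44) was not called (limma, adjusted p = 0.93). That fit also took its spread from Eed-null, where the SD of Lpl was 1.16, against 0.19 in WT and 0.35 in Ezh2-null. The ComBat fit (SE 0.24) left Eed-null out, so the fits differ in arrays as well as in version. In the first version Lpl was also not called when Eed-null was left out. On this probe set the groups were separate in both versions. The other Lpl probe set differed by -1.23 in the first version, and there the groups overlapped. Of the 13 probe sets called in the ComBat version (0.0344%), 9 were among the 10 called in the first.

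The targeted gene was read by 1 probe set, and its position relative to the deleted part of the gene is unknown here, so it may check nothing. In the first version the mean Ezh2 level was 10.01 ± 0.58 (SD, n = 3) for WT and 9.17 ± 0.19 (SD, n = 4) for Ezh2-null, a difference of -0.84 (SE 0.25, 95% interval -1.40 to -0.29; limma, adjusted p = 1.00). There the Ezh2 groups overlapped, since WT replicate 2 at 9.35 lay just below the highest Ezh2-null array at 9.36, and they were separate in 4 of 19 alternatives. The ComBat version read 10.44, 9.45 and 10.60 in WT and 9.37, 9.30, 9.44 and 8.99 in Ezh2-null. WT replicate 2 thus lay at the level of the highest Ezh2-null array in both versions, while for Bmi1, Hebp1 and Bmpr1a it lay with the other WT arrays. The other PRC2 subunits were close to 0: Suz12 differed by -0.02 (SE 0.17), Eed by -0.03 (SE 0.19) and Ezh1 by -0.15 (SE 0.18). Of 12 PRC2 subunits and accessory proteins, Ezh2 alone had an unadjusted p under 0.05 (0.00667), and 0 passed limma over all genes.

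Among genes that did not pass, the largest positive differences with an unadjusted p under 0.01 and no overlap were in Gphn, 2300010F08Rik, 4633402D09Rik, Pkd2, Epha7, 2900092N22Rik, Mid1, Cxadr, H3c15 and Plekha8. They ranged from 1.68 to 3.01. Counting differences of any size and the called genes too, 137 genes (0.666%) had an unadjusted p under 0.01 and no overlap. Of these, 76 were higher (0.37%) and 61 lower (0.297%). Gphn, which encodes gephyrin, a scaffold of inhibitory synapses that also makes the molybdenum cofactor, read 8.18, 6.18 and 4.76 in WT and 9.57, 9.94, 8.77 and 9.24 in Ezh2-null. Its difference of 3.01 (SE 0.62) was among the largest, but the WT arrays were more than 3 units apart.

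Pkd2, a calcium-permeable channel gene mutated in polycystic kidney disease, read 6.16, 5.06 and 4.40 in WT and 6.96, 7.68, 7.54 and 6.66 in Ezh2-null, a difference of 2.01 (SE 0.38). Cxadr, a cell adhesion protein gene that serves as a receptor for coxsackieviruses and adenoviruses, differed by 1.74 (SE 0.39), and its 5 probe sets by 0.21 to 1.74. Mid1, an X-linked ubiquitin ligase gene, read 9.05 and 9.15 in Ezh2-null replicates 1 and 2 but 7.04 and 7.06 in the other Ezh2-null arrays, while WT lay at 6.23 to 6.43. The Ezh2-null arrays were thus split on the brightest probe set of Mid1, with both pairs above WT. Its 3 probe sets differed by -0.074 to 1.775. On another of them Ezh2-null replicate 2 read 7.87 and the other Ezh2-null arrays 6.87 to 6.95. H3c15 belongs to the histone H3 family, whose near-identical members can share probes, so its value is uncertain.

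The largest negative differences by the same rule were in Hmga2, 1700006J14Rik, Lpl, Emilin2, Rnase4, Lrrc8b, AW557046, Zfp53, Hs3st3b1 and Ifi209, from -2.12 to -1.25. Hmga2, an architectural chromatin protein gene active in fetal stem cells, read 9.60, 9.63 and 9.98 in WT and 8.07, 8.49, 7.86 and 6.05 in Ezh2-null. Its difference was -2.12 (SE 0.54), with Ezh2-null replicate 4 well below the other arrays. Of its 4 probe sets only this one fell. The others differed by -0.02, 0.09 and 0.37, the last with every Ezh2-null array above WT. Emilin2, an extracellular matrix glycoprotein gene, read 8.30, 9.59 and 8.69 in WT and 8.01, 6.19, 6.87 and 7.14 in Ezh2-null, a difference of -1.81 (SE 0.41). Rnase4, a secreted ribonuclease gene, was at 6.98, 7.77 and 7.13 against 5.36, 6.16, 5.12 and 6.05, a difference of -1.62 (SE 0.32). On the probe sets given by array, the groups were separate in all 3 genes, most narrowly in Emilin2.

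Genes of known pathways and cell types were then read as lists. Over the 32 lists, 693 genes were measured, of which 3 (0.433%) were called and 35 (5.05%) had an unadjusted p under 0.05, against 3.74% of all genes. The called members were Bmi1, Bmpr1a and Hebp1, which had been known when the lists were drawn up. Other results of these data were known then too, so neither the 0.433% nor the 5.05% says anything about the lists. The median over all list members was 0.00, against -0.02 over all genes. List medians near 0 could turn sign with 1 WT array left out: the PRC1 median was -0.02 and that of the developmental regulators 0.05 without WT replicate 2, and the antigen presentation median, 0.07 with all arrays, was -0.10 without WT replicate 3. Because the cells were profiled in bulk, fewer cells of a type and less RNA per cell cannot be told apart in what follows.

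Of 23 PRC1 subunits, 15 had positive differences, with a median of 0.04. Bmi1 rose, and 4 others had an unadjusted p under 0.05 without passing over all genes. Bcor, a corepressor that forms a variant PRC1, read 10.61 to 11.09 in WT and 11.58, 11.45, 11.41 and 11.66 in Ezh2-null, a difference of 0.63 (SE 0.15) without overlap. Its homologue Bcorl1 differed by 0.68 (SE 0.24), the ubiquitin ligase subunit Rnf2 by 0.56 (SE 0.24) and the chromodomain subunit Cbx2 by -0.53 (SE 0.17). Among the paralogues of Bmi1, Pcgf1 differed by 0.40 (SE 0.20), Pcgf2 by -0.32 (SE 0.26), Pcgf5 by 0.00 (SE 0.44) and Pcgf6 by -0.30 (SE 0.34), and none of these passed. Of 21 enzymes that write or remove H3K27 and related marks, 12 were positive with a median of 0.02. The DNA demethylation enzyme Tet1 differed by 0.73 (SE 0.25) and the H3K36 methyltransferase Nsd1 by -0.30.

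In the BMP and TGF-beta list, 19 of 32 genes were positive, with a median of 0.03. Among the receptors, Bmpr1a rose and its type II partner Bmpr2 differed by 0.77 (SE 0.26), with WT arrays at 8.08, 8.62 and 7.80 and Ezh2-null arrays at 9.42, 8.75, 8.66 and 8.90. Bmpr1b, the other dedicated BMP type I receptor, differed by 0.03 (SE 0.11). The ligands Bmp2, Bmp4, Bmp6 and Bmp7 lay between -0.11 and 0.21. Of the intracellular mediators, Smad1 differed by 0.84 (SE 0.67) and Smad5 by -0.09 (SE 0.19), and the BMP target genes Id1, Id2 and Id3 by 0.32 (SE 0.17), 1.21 (SE 0.51) and -0.02 (SE 0.13). Id2 read 7.41 in WT replicate 3 against 9.54 and 9.78 in the other WT arrays, and 9.90 to 10.39 in Ezh2-null. Thus Bmpr1a was the only member of the list called by limma, and 3 had an unadjusted p under 0.05.

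In haem synthesis and handling, 15 of 21 genes were positive, with a median of 0.12. Hebp1 was called. The haem oxygenase Hmox2 differed by 0.59 (SE 0.27). Alas1, the first enzyme of the pathway outside red cells, differed by 0.10 (SE 0.21), and Hebp2, the relative of Hebp1, by 0.12 (SE 0.40). The mean level of the list did not overlap between the groups, at 8.83 to 8.90 in WT and 9.12 to 9.16 in Ezh2-null, and the mean holds the called gene Hebp1. Such a separation of list means was seen in 3 of the 32 lists. Another was the BMP and TGF-beta list, at 7.41 to 7.75 in WT and 7.79 to 7.87 in Ezh2-null. Its mean holds the called gene Bmpr1a (2.76). The last was the stromal and endothelial list, which was lower, at 6.75 to 6.96 in WT and 6.64 to 6.73 in Ezh2-null. Its mean holds Fn1 (-1.91). Both of these gaps were narrow, and each rests on that gene, since without Bmpr1a or Fn1 the list means of the groups overlap.

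In the MLL-AF9 programme 10 of 20 genes were positive and the median was -0.02. Hoxa9, a homeobox gene that MLL fusions keep active, differed by -0.14 (SE 0.26) and its cofactor gene Meis1 by 0.21 (SE 0.23). Of the 20, Id2 alone had an unadjusted p under 0.05. In the other Hox clusters 11 of 25 genes were positive, and Hoxb4 differed by 0.95 (SE 0.32). The 48 developmental regulators known as Polycomb targets had mean levels below the array medians, at 5.63 to 5.97 in WT and 5.64 to 5.81 in Ezh2-null. A small rise could be missed at such levels. Of the 48, 19 were positive, with a median of -0.03, and 0 had an adjusted or an unadjusted p under 0.05 in limma. The same was found for 18 CDK inhibitor and Rb pathway genes (median -0.13), where Cdkn2a, the Polycomb-silenced p16 and p19 locus, read 6.50, 6.96 and 6.80 in WT and 6.66, 7.24, 8.26 and 7.14 in Ezh2-null. Cdkn2a was highest in Ezh2-null replicate 3, and its groups overlapped.

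**Figure D4:**
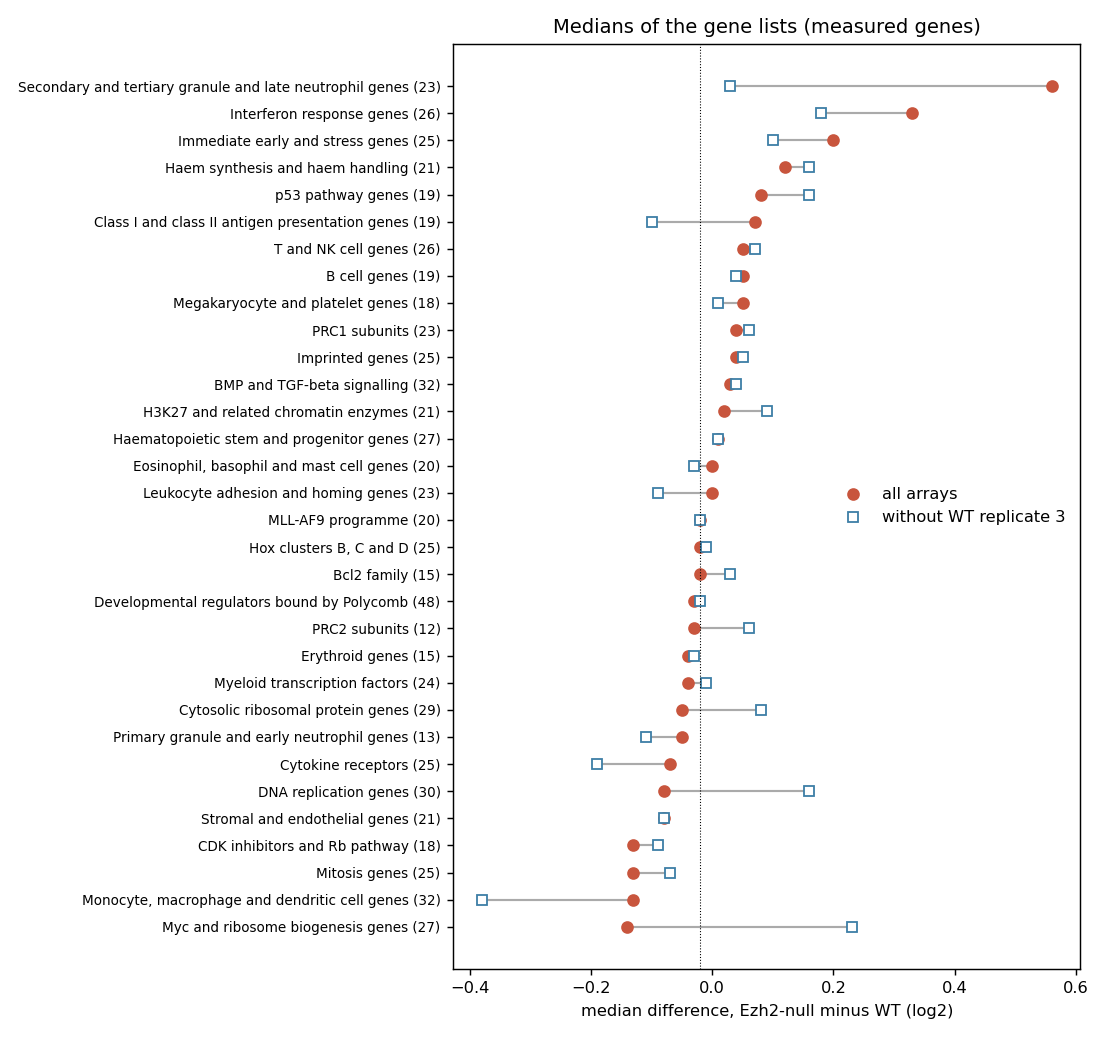
Median difference between Ezh2-null and WT (log2) of the measured members of each gene list, with the number of members in brackets; red points use all arrays, open squares leave out WT replicate 3, and the dotted line is the median of all genes at -0.02. The late neutrophil list moves from 0.56 to 0.03 and the Myc list from -0.14 to 0.23 when that array is left out.

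The late neutrophil list had the highest median, 0.56, with 21 of 23 genes positive, but the value rests on 1 WT array. The mean of the list was 10.34 on WT replicate 3, 11.86 and 11.77 on the other WT arrays, and 11.53 to 12.15 in Ezh2-null, and without it the median was 0.03. Ngp, a secondary granule protein gene, read 12.52 in WT replicate 3 and 13.83 to 14.06 on the other 6 arrays. Olfm4, a granule protein gene, differed by 0.85 with WT arrays at 10.81 to 11.18 and Ezh2-null arrays at 11.23 to 12.25, and Trem1, a receptor that amplifies inflammation, by 0.66. Of 13 primary granule genes 6 were positive, with a median of -0.05, and Ms4a3, a marker of granulocyte and monocyte progenitors, differed by -0.68.

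Monocyte, macrophage and dendritic cell genes had a median of -0.13, with 9 of 32 positive, which became -0.38 without WT replicate 3 and 0.03 without WT replicate 2. Ms4a6d differed by -1.02 and the Fc receptor gene Fcgr3 by -0.46. Ccr2, the chemokine receptor of inflammatory monocytes, read 11.23, 11.18 and 9.96 in WT and 9.67, 9.51 and 9.67 in Ezh2-null replicates 1, 3 and 4, with replicate 2 below them. For Ccr2, WT replicate 3 was the WT array nearest to the Ezh2-null arrays. Cebpa, the transcription factor gene of granulocyte and monocyte commitment, read 10.55, 9.74 and 11.01 in WT and 9.90, 9.92, 8.89 and 8.75 in Ezh2-null, a difference of -1.07 (SE 0.42) with overlap. The stem and progenitor list had 14 of 27 genes positive and a median of 0.01.

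In the lists of other lineages, medians lay near 0 and single members differed more. Bank1, a B cell adaptor gene, read 6.16, 5.45 and 4.75 in WT and 7.13, 7.07, 6.60 and 7.48 in Ezh2-null, a difference of 1.62 (SE 0.31) without overlap. Within the B cell list 13 of 19 genes were positive with a median of 0.05, and Cd72 differed by 0.45. Itgb3, the platelet and myeloid integrin beta 3 gene, differed by -1.03 (SE 0.38), and the platelet receptor gene Clec1b by -0.92, in a megakaryocyte list with 11 of 18 genes positive and a median of 0.05. The stromal and endothelial list had 7 of 21 positive and a median of -0.08. Fn1, the fibronectin gene, read 11.03, 11.63 and 9.58 in WT and 9.79, 9.14, 7.85 and 8.55 in Ezh2-null, a difference of -1.91 (SE 0.54) with overlap at WT replicate 3. Pecam1, an adhesion receptor of endothelial and myeloid cells, read 10.34, 10.20 and 10.19 in WT and 9.68, 9.48, 9.46 and 9.59 in Ezh2-null, and differed by -0.69 without overlap. None of these genes passed over all genes.

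Interferon response genes had 21 of 26 members positive and a median of 0.33, which was 0.18 without WT replicate 3. Their mean levels overlapped, at 7.41 to 7.89 in WT and 7.48 to 8.24 in Ezh2-null. Isg20, an antiviral exonuclease gene, differed by 0.95 and Oasl1 by 0.45. In the antigen presentation list 10 of 19 genes were positive. The non-classical class I gene H2-Q7 differed by 1.37, and since H2-Q genes share sequence, which member was read is uncertain. Myc and ribosome biogenesis genes had a median of -0.14 and of 0.23 without WT replicate 3, whose mean level was 10.80 against 9.87 and 9.57 in the other WT arrays. Mitosis genes had a median of -0.13 with 8 of 25 positive, replication genes of -0.08 with 11 of 30 positive (0.16 without WT replicate 3 and -0.26 without WT replicate 2), and in both lists 0 members had an adjusted or an unadjusted p under 0.05 in limma. Of 25 cytokine receptor genes 6 were positive, with a median of -0.07. There Il6st, the shared receptor subunit of the IL-6 family, read 10.50, 10.62 and 9.48 in WT and 9.30, 8.96, 9.39 and 8.58 in Ezh2-null, a difference of -1.14 without overlap. The IL-3 receptor subunit gene Il3ra differed by -0.50. In the remaining lists (p53 targets, the Bcl2 family, erythroid, T and NK, eosinophil to mast cell, ribosomal, immediate early, myeloid transcription factor, adhesion and imprinted genes) medians lay between -0.05 and 0.20, and 0 members were called by limma.

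Ezh2, Hebp1 and Gt(ROSA)26Sor lie on chromosome 6. After this was seen, the genes with an unadjusted p under 0.01 and no overlap were counted by chromosome, so the count is a description. On chromosome 6 they were 18 of 988 placed genes (1.82%), 10 higher and 8 lower, against 95 of 17161 (0.554%) on all other chromosomes. Each other chromosome taken alone had between 0.215% and 1.23%. In the ComBat version the shares were 1.92% and 0.874%. With single WT or Ezh2-null arrays left out, chromosome 6 had 13 to 22 such genes and 1.32% to 2.23%, and the other chromosomes together 0.414% to 1.35%, the highest of these without WT replicate 1.

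**Figure D5:**
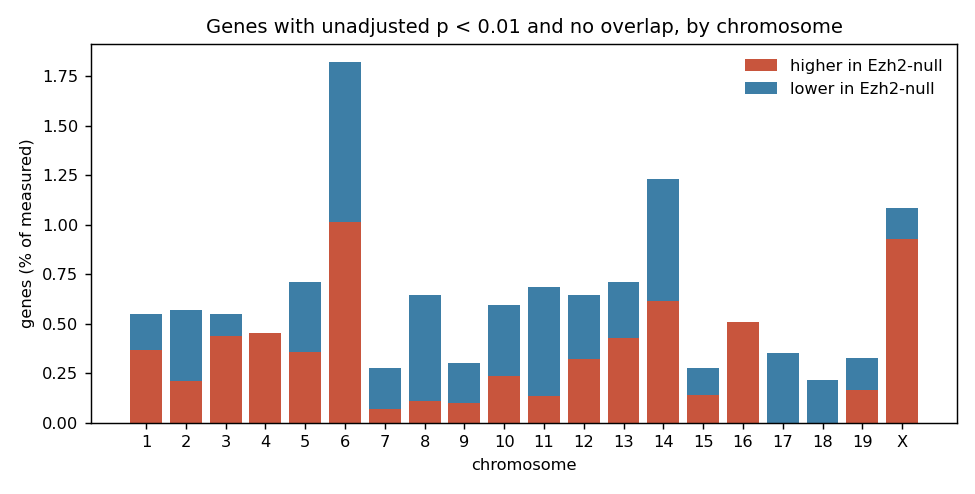
Percent of the measured genes of each chromosome with an unadjusted p under 0.01 and no overlap between Ezh2-null and WT, stacked as higher (red) and lower (blue) in Ezh2-null. Chromosome 6 stands at 1.82%, and the other chromosomes lie between 0.215% and 1.23%.

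Besides Hebp1 and Gt(ROSA)26Sor, the chromosome 6 genes included Fam234b (1.60), Plekha8 (1.68), the lectin receptor gene Clec4n (1.58), the transcription factor gene Nfe2l3 (1.36), BC064078 (1.25), Zfp783 (0.84), Lrmp (0.73), Fgf23 (0.35) and Sval1 (0.28) on the higher side. The lower side included Klrb1f (-1.08), Clec1b (-0.92), the RNA helicase gene Ddx47 (-0.92), the actin regulator gene Eps8 (-0.91), Tm7sf3 (-0.65) and Etfbkmt (-0.62). In the order of measured genes Fam234b is the neighbour of Hebp1, and Ddx47 lies 3 places from it. Zfp783 lies 6 places from Ezh2, whose direct neighbours Cul1 and Pdia4 differed by -0.05 and -0.69. The neighbours of Gt(ROSA)26Sor, Thumpd3 and Setd5, differed by -0.55 and -0.06. Why more of these genes lay on chromosome 6 was not tested.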

How the data were processed

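RNA of sorted mouse leukaemia cells was read on expression arrays. The deposited intensities come from RMA, per the submitters' processing notes (its version is not given in the sources used here). They are on a linear scale, as their range shows, and were turned into log2 values with a floor of 1. Another table that the authors deposited holds intensities of the same 7 arrays combined with another series and adjusted with ComBat, per the file header. It held 16 values below 0, set to the floor, and its 9 columns of another series were not used here.

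Of 45101 probe sets, 37762 had 1 symbol. The brightest probe set over all 10 arrays stood for each of 20564 genes. Current symbols, chromosomes and gene order came from RefSeq (GRCm38.p6), in which 18149 genes were placed. No genome build is named in the files.

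Testing of the first version used limma 3.58.1 (R 4.3.3) on all 10 arrays, two-sided, with a coefficient for each genotype. The eBayes step was trended, with 7 residual and 3.48 prior degrees of freedom. The ComBat version was tested in the same way on its 7 arrays alone, without Eed-null. The Benjamini-Hochberg adjustment ran over all genes, and an adjusted p under 0.05 was called. Each SE is limma's moderated standard error. The fit was tested on simulated data.

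The genes named were Ezh2, Ezh1, Eed, Suz12 and Cdkn2a, every called gene, the 10 largest positive and 10 largest negative differences among genes not called with an unadjusted p under 0.01 and no overlap, and up to 4 members of each list with the smallest p. Other list members and chromosome 6 genes are named as parts of their list or count, and some are not reported here. The genes Lrmda, Plag1 and Yes1 were named from the test of each probe set. The lists and members were chosen with earlier results of these data known. Alternatives were the ComBat table, a replicate block, only the 7 arrays, other rules for probe sets, a filter on dim genes, quantile normalization, a floor of 32, eBayes without trend, and single arrays left out.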

Additional observations from a re-analysis of the deposited data

Results flagged for a closer look

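Of 176 groups of 4 Ezh2-null arrays examined, 6 held an array further from the rest than the 95% critical value of Dixon's test allows. These 6 were of named genes, and chance alone flags about 1 group in 20. Hoxc8 read 4.27 in Ezh2-null replicate 4 and 4.09 to 4.12 in the others. Hoxb3 read 7.64 in replicate 1 against 6.93 to 7.01, and Hmox2 11.47 in replicate 1 against 10.73 to 10.82. The macrophage marker gene Cd68 was low in replicate 2 at 9.43, against 10.33 to 10.49. Tie1 at 5.04 and the ribosomal protein gene Rplp2 at 13.29 were low in replicate 1, against 5.27 to 5.30 and 13.72 to 13.79 in the other arrays. The reason was not tested.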

How the results depend on the processing

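The 5 called genes depended on the settings more than their differences did. The count was 9 with each probe set tested separately, 3 with quantile normalization, 3 without the trend in eBayes, 1 with a floor of 32, and 0 to 4 with single arrays left out. The 0 counts in limma came with WT replicate 2 left out (706 at an unadjusted p under 0.05) and with Ezh2-null replicates 1, 3 and 4 left out in turn (672, 605 and 586). Deviations from the group means correlated at 0.361, -0.20 and 0.081 between same-numbered WT and Ezh2-null arrays. Between arrays of different number they correlated at -0.315 to 0.381. The labels do not say whether the numbers pair the samples, and so few correlations cannot decide it. With the number as a replicate block limma called 0 genes, with 655 at an unadjusted p under 0.05, and 0 list members. List members called were 3, 1 with a floor of 32, and 0 to 3 with single arrays left out. Genes 2-fold apart without overlap numbered 85, and 85 to 248 with single arrays left out, with 248 without WT replicate 1, 145 without WT replicate 3 and 137 without Ezh2-null replicate 2. Higher counts are partly built in, because smaller groups lie apart more easily.

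Over all alternatives Bmi1 lay between 1.81 and 2.05 and was called in 14 of 19, Hebp1 between 2.83 and 3.45 in 11 of 19, Bmpr1a between 1.63 and 3.26 in 8 of 19, Tcf24 between 1.70 and 2.90 in 3 of 19 and Gt(ROSA)26Sor between -2.43 and -1.72 in 6 of 18. In each of these the groups did not overlap. Ezh2 ranged from -1.18 to -0.63 and was called in 0 of 19 by limma. Signs turned for genes near 0: Eed reached 0.02 with the replicate block, 0.02 with the mean of all probe sets, 0.07 with each probe set separately, and ranged over -0.15 to 0.07 with single arrays left out. Suz12 reached 0.05, 0.04 and 0.25 under the same 3 settings, and ranged over -0.13 to 0.14 with single arrays left out. Averaging probe sets put Hoxa10 at 0.07 and Sox9 at 0.01, and testing them separately at 0.55 and 0.17. The cause was not tested.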
